A study of Mus musculus with 15 samples.

Results

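Olfactory epithelium of untreated mice and of sham-operated mice at day 5 after surgery was compared on 6 of the 15 Affymetrix Mouse Genome U74Av2 arrays of the series, the 3 arrays titled as untreated and the 3 titled as sham at day 5. Each array carried total RNA pooled from 3 male C57Bl/6 mice that were 6 weeks old, with 5 µg of RNA from each mouse, and no transgene or mutant allele is named for any group. The other 9 arrays came from mice at days 1, 5 and 7 after olfactory bulbectomy (OBX), the surgical removal of the bulb to which olfactory axons project. The sham procedure itself is not described in the sources used here. A pool hides the spread between its mice, so the p-values below measure the spread between pools of 1 group. Of 12422 probe sets other than array controls, 6642 met the presence rule used here, a present call on 3 or more of these 6 arrays, and 6020 of them carry the name of 1 gene, for 5167 genes in all.

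The olfactory epithelium lines the back of the nasal cavity. Its mature sensory neurons each extend an axon to the olfactory bulb, die throughout adult life and are replaced from basal progenitors through an immature, axon-growing stage. Sustentacular cells surround the neurons and are rich in detoxifying enzymes, and Bowman glands in the underlying lamina propria, together with other nasal glands, secrete a mucus that holds lipocalins able to bind odorants and pheromones.

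The 6 arrays resembled each other closely, and correlations between groups covered a range like those within groups. Across the probe sets examined, the log2 signals of a sham and an untreated array correlated at 0.970 to 0.990 (Pearson r, 9 pairs), against 0.978 to 0.987 between sham arrays and 0.977 to 0.988 between untreated arrays (3 pairs each). These correlations are across probe sets, which are not independent replicates. The share of probe sets with a present call ran from 49.1% on untreated replicate 1 to 54.3%, and the median signal lay between 669.0 and 704.7. On the first principal component, with 41.5% of the variance, untreated replicate 1 (−16.5) and sham replicate 2 (−8.6) lay on 1 side and the other 4 arrays, both groups among them, between 1.8 and 13.4. On the second component, with 19.2% of the variance, all sham arrays (1.9 to 7.2) lay above all untreated arrays (−12.2 to 1.5). All 6 arrays were scanned on the same day, but in 2 runs of the fluidics station. The first run held the 3 untreated arrays and sham replicate 1, and the second held sham replicates 2 and 3, with no untreated array. Only sham replicate 1 therefore compares with untreated mice inside a run. All 46 named probe sets with an unadjusted p under 0.05 kept their sign in that comparison. Sham replicate 1 and the untreated arrays also entered the fit behind these p-values, so this is no independent check. Of the 46, 13 moved by over 1.5 times inside the first run, and the value is given beside those described below.

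**Figure D1:**
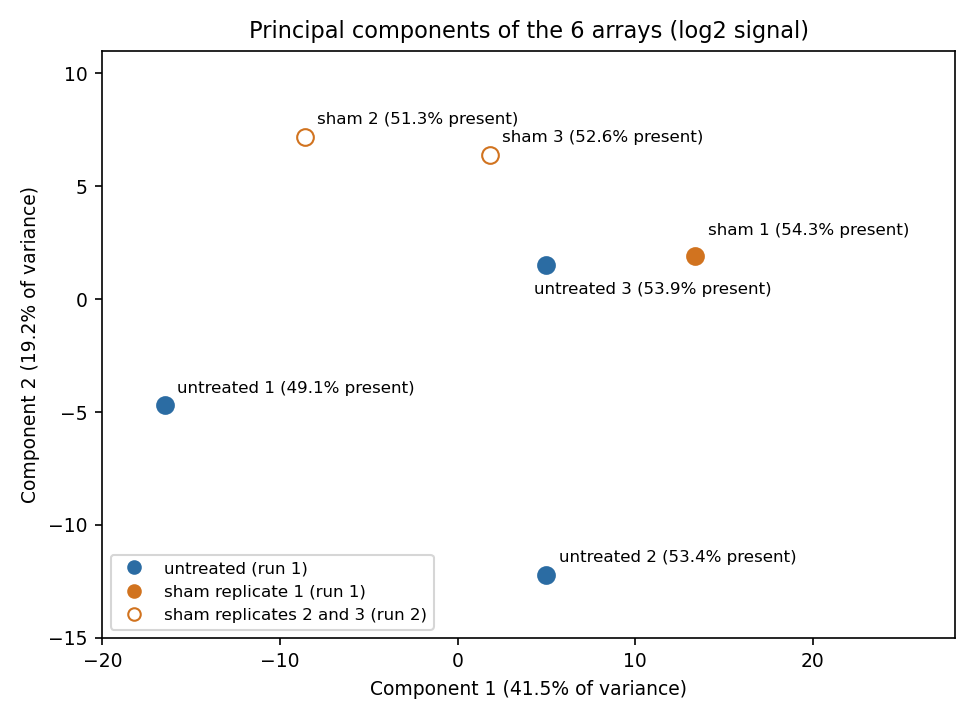
Principal components of the log2 signals of the probe sets examined, 1 point per array, with the share of probe sets called present written beside each point and the fluidics run shown by filled (run 1) or open (run 2) symbols. Sham and untreated arrays are mixed along component 1, where sham replicate 1 is highest at 13.4 and untreated replicate 1 lowest at −16.5. On component 2 all sham arrays lie above all untreated arrays, the lowest sham array at 1.9 and the highest untreated array at 1.5.

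The brightest named genes of the tissue included genes known from neurons, from connective tissue, from detoxification and from protein synthesis. A signal depends on how well a probe set binds as well as on the transcript, so the order below ranks probe sets and is no ranking of transcript amounts. The 30 genes with the brightest probe sets had mean signals (geometric, over 6 arrays) from 25464.5 to 48965, and 22 of the 53 probe sets at least as bright carry no single gene name. Of the 30, 27 had a coefficient of variation under 10% over the 6 arrays, and the median was 4.2%. The 3 others, Hba-a1, Wfdc18 and Gm14743, are described below.

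Rpl41 was the brightest at 48965, and Rps24 (42342), Rps28 (31988), Rplp0 (30870.5), Rpl7 (29466), Rps4x (26737) and Rps3a1 (25464.5), all proteins of the ribosome, were also among the 30. The translation elongation factor Eef1a1 (47514), the widely expressed growth protein Tpt1 (44688), the tubulins Tuba1a (46005) and Tuba1c (39795), the actin Actg1 (33078) and the iron store protein Fth1 (27084) stood beside them. Ribosomal and tubulin genes have many near-identical relatives, so signal from related transcripts cannot be told apart from their own on these probe sets. The second brightest gene was Col1a1 (48862), and Col1a2 (37772) was the eleventh. These are the 2 chains of type I collagen, the main fibre of bone and connective tissue, and they vary little over the arrays: Col1a1 had a coefficient of variation of 1.8%, the lowest of the 30.

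Among neuronal genes S100a5 and Omp stood out. S100a5, a calcium-binding protein of olfactory sensory neurons, had signals of 36403, 42385 and 37509.6 on the untreated arrays and 42283, 42508 and 40862 on the sham arrays. Omp, which encodes the protein by which mature olfactory neurons are recognised, had 38274, 41307 and 37996 on untreated and 39156, 39188 and 38394 on sham arrays. The groups overlapped for both genes, and the 2 genes lay at 40248 and 39038 on average. App (30926) and Prnp (30008), membrane proteins abundant in neurons, and the adhesion molecule Cadm1 (25706) were also among the 30. The region around the start of S100a5 is shown because this gene was the brightest neuronal gene, and it holds none of the 3 motifs searched in this and the promoters below. Positions are those of RefSeq on GRCm38.p6, each window runs 5′ to 3′ on the gene's strand from 250 bases before to 50 bases after the start, and capitals mark motif letters.
S100a5, chr3:90608272-90608571, plus strand: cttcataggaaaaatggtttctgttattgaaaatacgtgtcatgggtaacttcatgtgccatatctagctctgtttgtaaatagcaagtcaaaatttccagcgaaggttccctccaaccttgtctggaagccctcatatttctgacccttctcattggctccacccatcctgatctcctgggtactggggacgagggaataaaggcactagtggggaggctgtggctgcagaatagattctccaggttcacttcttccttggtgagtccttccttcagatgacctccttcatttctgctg
The first motif was TATAAA, known as the TATA box. The second was CACGTG, the E-box bound by the clock proteins, and the third was TGACGT, the core of the cAMP response element. Each was searched on both strands, and none overlap in the windows shown. They occurred in 13.62%, 7.15% and 7.51% of 32851 such mouse windows, so a match in 1 window is a description and no evidence of binding.

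Detoxifying and related enzymes made up another bright group, and RNA of the whole tissue does not show which cells held them. Gstm1, a glutathione transferase, had signals of 42056, 41608 and 39234 on untreated and 39794, 39037 and 39406 on sham arrays, with a mean of 40172. Cyp2f2, a cytochrome P450 of airway and nasal epithelium, had a mean of 27053, and the aldo-keto reductase Akr1a1 had 27533. Further down lay Cyb5a (21292), the cytochrome b5 that passes electrons to P450 enzymes, the retinal-oxidising enzyme Aldh1a1 (15276) and Cyp1a2 (14314). Of 40 genes listed for sustentacular cells and xenobiotic metabolism, 34 passed the presence rule, with a median signal of 5036 against 1874 over all genes examined.

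**Figure D2:**
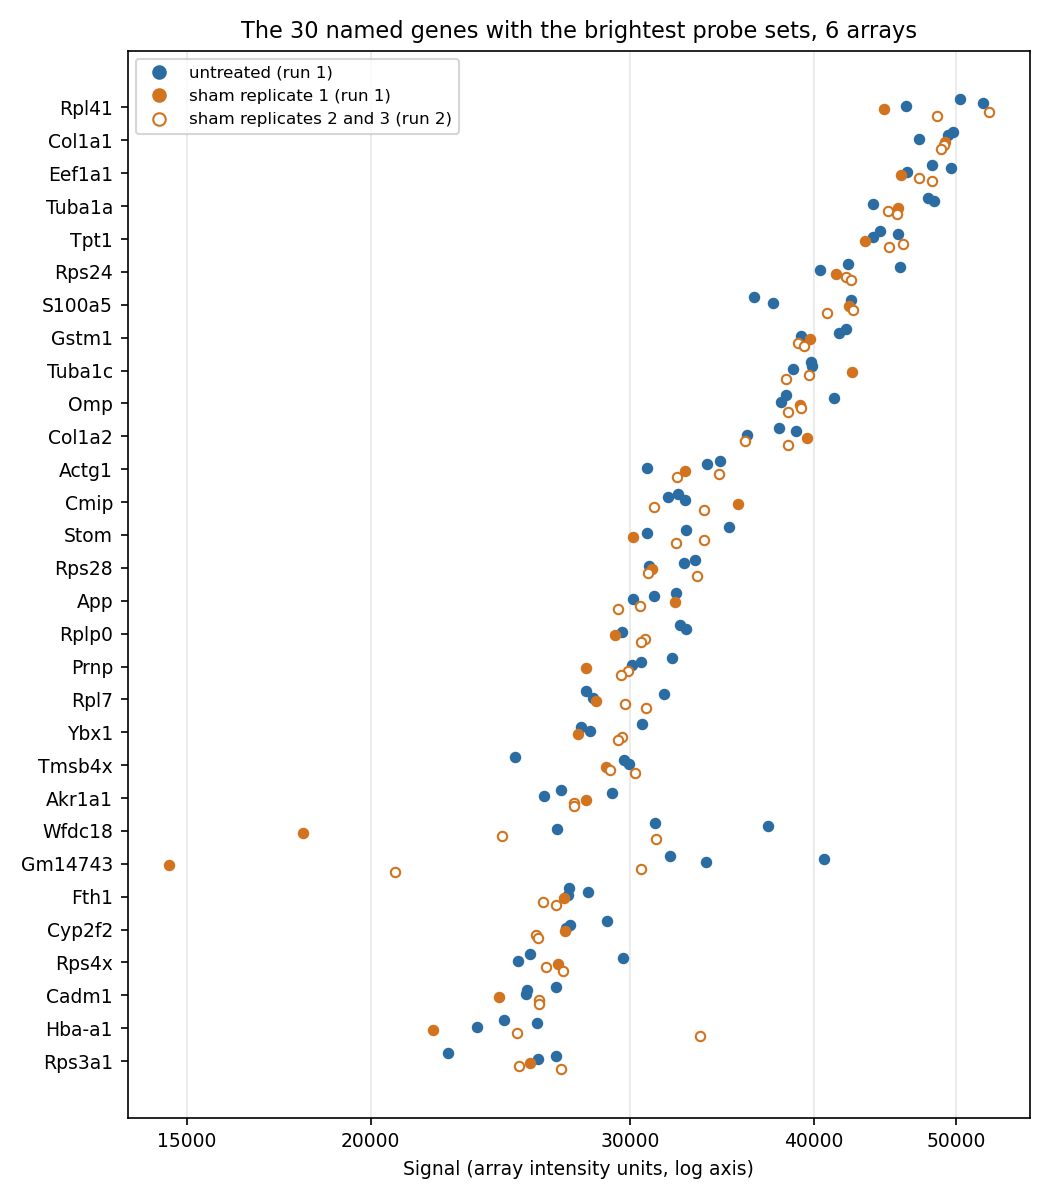
Signal on each of the 6 arrays (log axis, array intensity units) for the 30 named genes with the brightest probe sets, ordered by their mean, with filled symbols for fluidics run 1 and open symbols for run 2. Within most rows the points lie close together, as for Col1a1 (coefficient of variation 1.8%), while Wfdc18 (23.5%), Gm14743 (32.9%) and Hba-a1 (15.5%) spread widely.

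The marker lists give a picture of which cells the tissue held, and their counts are to be read against the 6642 of 12422 probe sets that met the presence rule over the whole array. The lists count genes, and a gene passed where any of its probe sets did, so this share of probe sets is a rough guide only. The list of mature sensory neurons had 13 of 14 genes above the presence rule, with a median signal of 8040. They included the transcription factors Ebf2 (17082) and Ebf3 (14128), the cyclic nucleotide-gated channel subunit Cnga2 (11531) that carries the odour current, and Reep1 (7699). Odorant receptors, each of which is expressed by a small share of the neurons, were dimmer. Of 21 on the array 10 passed, with a median of 2122 and Olfr71 brightest at 4479. Receptor families share sequence, so these signals may include related receptors.

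Genes of immature neurons and axon growth were nearly all measured, 23 of 26. The tubulin-binding protein Stmn1 (18499), the neuronal tubulin Tubb3 (14206), the adhesion molecule Ncam1 (14148) and the growth cone protein Gap43 (8868) led them. Progenitor genes passed in 19 of 22 cases, from Id4 (11295), an inhibitor of differentiation factors, and Sox2 (10349), a stem cell factor, down to Neurog1, a proneural factor, at 481. Cell cycle genes passed in 41 of 58 cases, with a median of 1030, and the replication clamp Pcna had 4209. Of 24 genes in the list of horizontal basal and squamous cells, which holds many keratins, 12 passed, a share near that of probe sets on the whole array. Krt5 and Krt14, which define horizontal basal cells, did not pass.

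Markers of neighbouring tissues were unevenly represented. The haemoglobin chain Hba-a1 (25580) was among the 30 brightest genes. The bone proteins Ibsp (6486), Ctsk (7955) and Acp5 (4622) were present on all 6 arrays, in a bone and cartilage list of which 13 of 19 genes passed. The genes of this list that did not pass were the cartilage genes Acan, Col2a1, Col10a1, Hapln1, Matn1 and Matn3. Col9a1, Col11a2 and Chad passed without a present call on every array. Of 28 skeletal muscle genes 4 passed, with a median signal of 2552, among them Eno3 (2794) and Cox8b (2330.5). Ckm, Acta1, Myh4 and Mylpf did not pass. Olfactory bulb and brain genes passed in 2 of 11 cases, and Gad1, Gad2, Th and Camk2a were not among them. Of 30 macrophage genes 17 passed, with Cd14 (4419.9) brightest and Cd68 at 1449.9, and of 30 chemokines and cytokines 7 passed. In tissue RNA, fewer cells of a type and less RNA per cell cannot be told apart.

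Sham mice at day 5 were then compared with untreated mice. No probe set passed the test in limma (0 of 6642, 0.0%, smallest adjusted p = 0.66). At an unadjusted p under 0.05 there were 192 probe sets, 86 higher and 106 lower in sham mice against 332 that this threshold passes when no probe set differs. Over all 5167 genes, each by its brightest probe set, 69 lay higher and 80 lower at that threshold. Counts within the lists below are to be read against these. No test other than limma was applied to probe sets. The median absolute log2 change was 0.07, and 99% of probe sets differed by 0.52 or less. The 95% confidence interval of the change lay within 2-fold in either direction for 6494 probe sets (97.8%) and within 1.5-fold for 5677 (85.5%). The interval reached a median of 0.27 on the log2 scale to either side of the fitted change. A log2 change is written below with its moderated standard error.

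Only 14 probe sets had fitted changes over 2-fold, 11 of them lower in sham mice. Those 11 were probe sets of the secreted proteins Obp1a, Mup3, Mup5, Lcn2, Lcn4, Slpi and Pip, and 4 without a single gene name. The 3 higher ones were dim probe sets of Phgdh, Zfp503 and Otud4, with mean signals of 179.5, 64.6 and 48.9, and the last 2 are named because of their values. The groups did not overlap for 234 probe sets with sham higher (3.52%) and 247 with sham lower (3.72%).

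**Figure D3:**
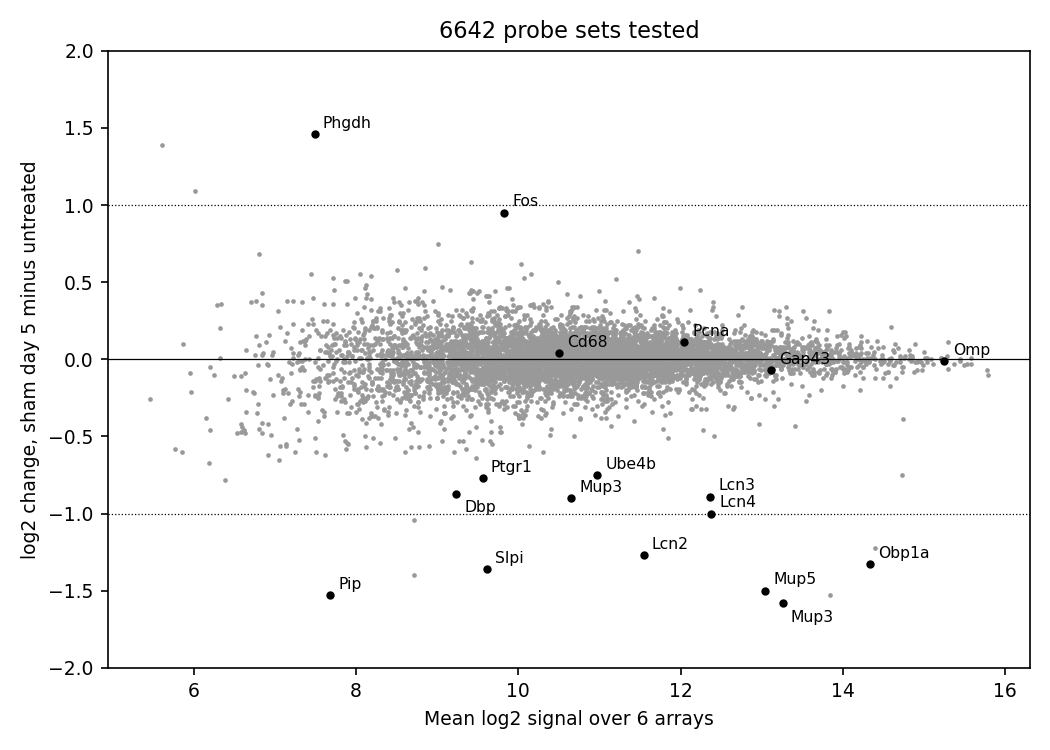
The log2 change between sham and untreated mice of each of the 6642 probe sets against its mean log2 signal, with dotted lines at 2-fold and black dots for named genes. Most probe sets lie within 0.14 of 0, bright probe sets scatter least, and the bright points far below 0 are secreted proteins such as Obp1a, Mup3 and Mup5.

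The smallest p-value toward higher signal in sham mice belonged to Fos, a subunit of the immediate early transcription factor AP-1. Its signals were 669.8, 622 and 661 in untreated and 1454, 1358 and 1006 in sham mice. Every sham array lay above every untreated array, and the change was 0.95 ± 0.15 (limma adjusted p = 0.66), or 1.16 for sham replicate 1 inside the first run. Over the 9 OBX arrays the Fos signal ran from 633 to 2089, which takes in all but 1 of the 6 values. Its promoter is shown as that of the gene with the smallest p, and holds a TATA box 33 bases and a cAMP response element core 66 bases before the start.
Fos, chr12:85473640-85473939, plus strand: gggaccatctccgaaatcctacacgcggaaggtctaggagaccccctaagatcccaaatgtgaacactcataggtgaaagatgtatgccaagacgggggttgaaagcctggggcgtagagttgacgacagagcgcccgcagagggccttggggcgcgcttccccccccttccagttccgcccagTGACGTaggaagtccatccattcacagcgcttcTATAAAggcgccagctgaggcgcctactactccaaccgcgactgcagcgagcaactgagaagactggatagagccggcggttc
Of the immediate early and stress genes, 36 of 44 were measured, 21 lay higher and 15 lower in sham mice, and 5 had an unadjusted p under 0.05, all higher, against 69 higher and 80 lower of the 5167 genes in all. They were Fos, Cebpd (0.42 ± 0.13), a transcription factor of the acute phase, the kinase Sgk1 (0.24 ± 0.11, 0.41 inside the first run), the heat shock co-chaperone Dnajb1 (0.24 ± 0.11, 0.15 inside the first run), and the heat shock protein Hsph1 (0.22 ± 0.10), which is named because of its value. Their list median was 0.03, against 0.002 over all genes, and the brightest of its genes were Jund (0.10 ± 0.08), Hspa8 (0.05 ± 0.08), Dusp1 (0.19 ± 0.09) and Atf4 (0.12 ± 0.10).

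Other genes with small p-values also lay higher in sham mice. Lpl, lipoprotein lipase, had 667, 959.9 and 941 in untreated and 1234, 1321 and 1339 in sham mice. Cxcl5, a chemokine that attracts neutrophils, had 2192, 2106 and 2431 against 3586, 5197 and 2603. Neither gene's groups overlapped, and the changes were 0.62 ± 0.15 and 0.70 ± 0.21 (limma adjusted p = 1.0 for both). Ppp4c, the catalytic subunit of protein phosphatase 4, was higher by 0.37 ± 0.10, Thbs2, a matricellular glycoprotein, by 0.46 ± 0.13, and Nsf, an ATPase of vesicle fusion, by 0.32 ± 0.09, none past the test. Phgdh, the first enzyme of serine synthesis, had the largest of these changes (1.46 ± 0.38) on a dim probe set called present on 1 untreated and 2 sham arrays.

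Toward lower signal the smallest p-value was that of Slpi, a secreted inhibitor of neutrophil proteases, on the dimmer of its 2 measured probe sets. There the signals were 1768, 905 and 1237 in untreated and 409.8, 533 and 534 in sham mice. All sham arrays lay below all untreated arrays, and the change was −1.36 ± 0.23 (limma adjusted p = 0.66). The brighter probe set had 4379, 3736 and 4973 against 3282, 4529 and 3640.0, overlapping groups and a change of −0.20 ± 0.14, so the probe sets of this gene disagreed in size. On the 9 OBX arrays the dimmer probe set ran from 1424 to 4467, above every sham array. The Slpi promoter window holds an E-box 146 bases before the start.
Slpi, chr2:164356458-164356757, minus strand: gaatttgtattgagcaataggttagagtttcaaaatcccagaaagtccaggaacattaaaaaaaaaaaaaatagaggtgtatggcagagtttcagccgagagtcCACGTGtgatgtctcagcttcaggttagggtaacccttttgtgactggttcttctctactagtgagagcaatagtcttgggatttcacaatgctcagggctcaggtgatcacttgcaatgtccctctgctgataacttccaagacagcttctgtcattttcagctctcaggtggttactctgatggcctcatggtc

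Ptgr1, prostaglandin reductase 1, had signals of 1132, 977 and 863 in untreated and 541, 587 and 609 in sham mice. Ube4b, a ubiquitin ligase that extends ubiquitin chains, had 2883, 2668 and 2274 against 1257, 1676 and 1751. The groups did not overlap for either gene, the changes were −0.77 ± 0.14 and −0.75 ± 0.15 (limma adjusted p = 0.69 and 0.96), and inside the first run they were −0.86 and −1.05. Untreated mice were the high group for Ube4b within the series, since the 9 OBX arrays ran from 1472 to 2168, below every untreated array. Atp6v0a2, a subunit of the vacuolar proton pump, differed by −0.49 ± 0.10 on 1 probe set (limma adjusted p = 1.0) and by −0.04 ± 0.09 and 0.11 ± 0.13 on its other 2. Plet1 (−0.60 ± 0.14), the actin regulator Wdr1 (−0.42 ± 0.11), the methyltransferase Mettl18 (−0.58 ± 0.15) and the aldolase Aldoc (−0.36 ± 0.10) completed the group, each with groups that did not overlap and limma adjusted p = 1.0.

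Secreted proteins of the nasal glands varied between pools of 1 group as well as between groups. Obp1a, an odorant-binding lipocalin, had signals of 34041, 37355 and 27572 in untreated mice and 6379, 32553 and 10650.2 in sham mice. Sham replicate 2 lay among the untreated arrays and sham replicates 1 and 3 far below them, a 5.9-fold range over the 6 arrays. The change was −1.33 ± 0.47 (limma adjusted p = 1.0) and −2.36 inside the first run. Without sham replicate 2 it became −1.99 with limma adjusted p = 0.034, and that fit called 2 probe sets, Obp1a and 1 without a gene name. On the 9 OBX arrays the Obp1a signal ran from 3984 to 42538, a range that takes in all 6 values. Its promoter, shown because Obp1a was the brightest gene with a fitted change over 2-fold, holds a TATA box 30 bases before the start.
Obp1a, chrX:78091325-78091624, minus strand: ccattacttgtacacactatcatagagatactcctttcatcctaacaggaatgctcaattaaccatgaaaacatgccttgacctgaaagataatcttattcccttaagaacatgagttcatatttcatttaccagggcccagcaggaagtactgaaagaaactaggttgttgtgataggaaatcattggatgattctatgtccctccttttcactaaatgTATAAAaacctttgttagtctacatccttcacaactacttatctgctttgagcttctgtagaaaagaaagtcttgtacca

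Mup3 and Mup5, major urinary proteins that bind volatile pheromones, followed a similar pattern. The brighter Mup3 probe set had 19905, 21015 and 11518 in untreated and 2743, 11926 and 5569 in sham mice, a change of −1.58 ± 0.45, or −2.62 inside the first run. Mup5 had 27236, 6992 and 14899.7 against 2742, 11311 and 4046, a change of −1.50 ± 0.55, or −2.37 inside the first run. Sham replicate 2 again lay inside the untreated range for both, and sham replicate 1 was the lowest array for both. Their probe sets match several members of the family, so neither signal belongs to 1 gene alone. Gm14743 (31932, 40655 and 33804 against 14577, 30536 and 20763) and Wfdc18 (31219, 37226 and 26777 against 17977, 24571 and 31269), a secreted protein of the whey acidic family, were also lowest in sham replicate 1. The groups did not overlap for Gm14743 (−0.75 ± 0.22, −1.27 inside the first run) and overlapped for Wfdc18 (−0.39 ± 0.19).

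The lipocalins Lcn3 and Lcn4 split the arrays differently. Lcn4 had 3428, 11834 and 10561 in untreated and 6493, 10224 and 805 in sham mice, a 14.7-fold range in which sham replicate 3 was lowest and untreated replicate 1 next. Lcn3 had 4418, 9340.0 and 8889 against 5296, 7485 and 1452, with the same 2 arrays lowest. The brighter probe set of Lcn2, an iron-siderophore-binding lipocalin of epithelia and neutrophils, had 7397, 2779 and 4821 against 917, 7570.0 and 1028. There sham replicates 1 and 3 were low and sham replicate 2 was highest of all. The dimmer Lcn2 probe set, present on all 6 arrays, had 901, 684 and 609 against 637, 751 and 732. Its change was −0.03 ± 0.17, so the probe sets of this gene disagreed in both change and spread. The changes of Lcn4 (−1.0 ± 0.84), Lcn3 (−0.89 ± 0.53) and the brighter Lcn2 probe set (−1.27 ± 0.71) had wide intervals, which for Lcn4 ran from −2.89 to 0.88. Inside the first run they were −0.22, −0.43 and −2.34, and without sham replicate 3 the Lcn4 change was 0.11 and that of Lcn3 −0.19. On the same arrays the groups overlapped closely for Reg3g (−0.02 ± 0.10), an antibacterial lectin, Slc12a2 (0.02 ± 0.10), a chloride cotransporter, and the water channel Aqp1 (−0.02 ± 0.09), and overlapped for Ltf (−0.03 ± 0.22), lactoferrin.

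Over the whole list of Bowman gland and nasal secretory genes, 24 of 29 were measured, and the median SD of log2 signal within a group was 0.37, against 0.14 over all genes. The neutrophil list, which shares Lcn2 and Ltf with it, had the same median SD, and the other lists of at least 5 genes had 0.32 or less. Counting each gene by its brightest probe set, none of the 24 secretory genes passed the test, and the interval lay within 2-fold for 15. An unadjusted p under 0.05 was found for 4, all lower in sham mice (Obp1a, Mup3, Mup5 and Pip), against 80 lower of all 5167 genes. Slpi, also in the list, entered these counts by its brighter probe set, whose groups overlapped. On its dimmer probe set (−1.36 ± 0.23) all sham arrays lay lower. The list median was −0.05. The summed signal of the list ran from 165863 to 192680 on untreated and from 107742 to 169292 on sham arrays, so the ranges overlapped. By brightest probe set Pip, the prolactin-induced protein of glandular secretions, was the 1 member whose groups did not overlap with sham lower, against 3.95% of all genes. It was dim, with 365, 573 and 200.5 in untreated and 101, 115 and 151 in sham mice, and was called present on 3 and 1 arrays (−1.53 ± 0.36). The amount of gland tissue in each dissection is not given in the sources used here, and its part in these values was not tested.

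**Figure D4:**
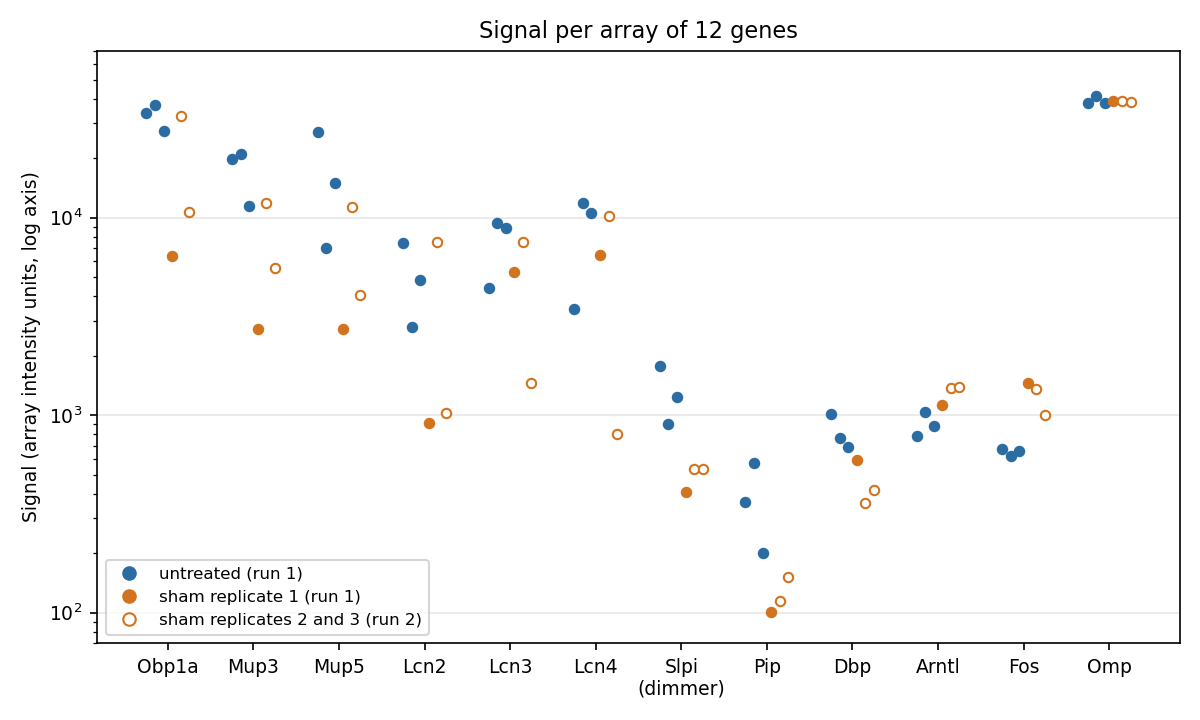
Signal per array (log axis, array intensity units) of 12 genes, with untreated arrays in blue, sham replicate 1 in filled orange and sham replicates 2 and 3 in open orange symbols. For Obp1a, Mup3, Mup5, Lcn2, Lcn3 and Lcn4 the sham arrays spread over several fold and overlap the untreated arrays, for the dimmer probe set of Slpi and for Pip, Dbp, Arntl and Fos the groups are apart, and for Omp all 6 points lie between 37996 and 41307.

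The neuronal lists differed little between sham and untreated mice, and their intervals were narrow. None of the 13 mature neuron genes passed the test, none had an unadjusted p under 0.05, and all 13 intervals lay within 2-fold, with a list median of −0.01. Omp differed by −0.01 ± 0.06, with an interval from −0.14 to 0.12, S100a5 by 0.11 ± 0.07 and Cnga2 by −0.17 ± 0.12. Of 10 odorant receptors 1 had an unadjusted p under 0.05, Olfr140 (2480.4, 2567 and 2514 against 1905, 2003 and 2279.5, −0.29 ± 0.10). It was called present on 2 untreated arrays and 1 sham array, and the sham arrays all lay below the untreated ones. Among 23 genes of immature neurons and axon growth the median was −0.06, with Gap43 at −0.07 ± 0.08. The 1 with an unadjusted p under 0.05 was Basp1, a membrane protein of growth cones (0.16 ± 0.07). Its other measured probe set gave −0.01 ± 0.09, with overlapping groups.

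The medians of progenitor and cell cycle genes were likewise close to 0. The 19 progenitor genes had a median of 0.02 and 18 intervals within 2-fold, the exception being the receptor Notch1 on a dim probe set (−0.58 ± 0.38, interval from −1.44 to 0.28). Neurog1 differed by 0.13 ± 0.14, with 484, 462 and 433 in untreated and 508, 542 and 464 in sham mice. Of 41 cell cycle genes, 2 lay higher and 1 lower at an unadjusted p under 0.05, and the median was 0.01. The higher ones were Birc5 (0.40 ± 0.17, 0.20 inside the first run), the mitotic survivor protein survivin, and the mitotic kinesin Kif4 (0.35 ± 0.15), and the lower one was the spindle checkpoint protein Mad2l1 (−0.38 ± 0.12). Pcna had 3656, 4183 and 4333 against 4798, 3903 and 4480.3 (0.11 ± 0.11), with overlapping groups. The 3 cell cycle genes whose sham arrays all lay higher and the 1 lower are to be read against 3.79% and 3.95% of all genes.

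No sustentacular or detoxifying gene passed the test, and most had changes slightly below 0. Of 34 genes, 26 had a change below 0, against 2529 of all 5167 genes, and the list median was −0.09, but 0.00 inside the first run. Ptgr1, Adh1 (−0.30 ± 0.10), an alcohol dehydrogenase, and Gstp1 (−0.31 ± 0.09), a glutathione transferase, lay lower at an unadjusted p under 0.05, and Cyp1a2 (0.19 ± 0.08) higher. Adh1 had 6564, 7216 and 6682 against 6309, 5108 and 5312, and inside the first run its difference was −0.11. For 6 of the 34 genes all sham arrays lay below all untreated arrays and for 1 all lay above, against 3.95% and 3.79% of all genes. The summed signal of the list ran from 260403 to 263129 on untreated and from 235942 to 264523 on sham arrays.

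Immune lists had medians on both sides of 0, and some of these turned with the arrays used. Among 15 interferon response genes the median was 0.18, but −0.04 inside the first run and −0.06 without sham replicate 2. Irf9, a subunit of the interferon-stimulated factor, had 1451, 1324 and 1616 in untreated and 1690.2, 2008 and 1834 in sham mice (0.33 ± 0.11, 0.21 inside the first run). Irf9 was called present on 1 untreated and 3 sham arrays. It was the 1 member with an unadjusted p under 0.05, and its groups and those of Ifit1 (0.29 ± 0.14) did not overlap, 2 of 15 genes against 3.79% of all genes with sham higher. The 12 antigen presentation genes had a median of 0.09, which was −0.06 inside the first run. The invariant chain Cd74 had 7543, 4848 and 6373 against 6143, 9375 and 8190.2 and B2m, which pairs with class I heavy chains, 5244, 6196 and 6821 against 6041, 8708 and 7714. For both genes sham replicate 1 lay within the untreated range and sham replicates 2 and 3 above it, so their changes (0.34 ± 0.18 and 0.29 ± 0.14) came to 0.00 inside the first run. For sham replicates 2 and 3, fluidics run and group cannot be told apart.

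Macrophage genes (17 measured, median 0.09, −0.09 inside the first run) included Cd68 (1553, 1332 and 1419 against 1387, 1573 and 1451, 0.04 ± 0.11) and the complement component C1qc (0.15 ± 0.09), neither with an unadjusted p under 0.05. The 11 neutrophil genes had a median of −0.02, and the calgranulins S100a8 (−0.02 ± 0.21) and S100a9 (0.18 ± 0.19) overlapped between groups. Chil3, a chitinase-like protein of myeloid cells and airway epithelium, had 1922, 1097 and 1747 in untreated and 959, 1401 and 4788 in sham mice, with sham replicate 3 highest by far. The 7 lymphocyte and plasma cell genes had a median of −0.11, which was −0.55 inside the first run and −0.01 without sham replicate 1, and 6 of them lay lower. Igha, the immunoglobulin A heavy chain, was among these (−0.55 ± 0.24, unadjusted p = 0.044).

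Matrix and wound repair genes gave no common direction, 21 of 37 lying higher and 16 lower. Mmp13, a collagenase of bone and healing wounds, had 9886, 11128 and 11645 in untreated and 14298, 11949.6 and 13136 in sham mice (0.27 ± 0.09), and Thbs2 also lay higher. S100a6 (−0.27 ± 0.10) and S100a4 (−0.45 ± 0.15), calcium-binding proteins of fibroblasts and other motile cells, lay lower. These 4 were the members with an unadjusted p under 0.05. Over the list the groups did not overlap for 3 genes with sham higher and 2 with sham lower, against 3.79% and 3.95% of all genes. Ribosomal (22), respiratory chain (64) and proteasome (33) genes had medians of 0.01, 0.00 and 0.03, with no unadjusted p under 0.05 in any of the 3 lists. Erythrocyte genes (6 measured) had a median of 0.06, and Hba-a1 ran from 22030.4 to 33495, sham replicates 1 and 3 being its lowest and highest arrays.

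**Figure D5:**
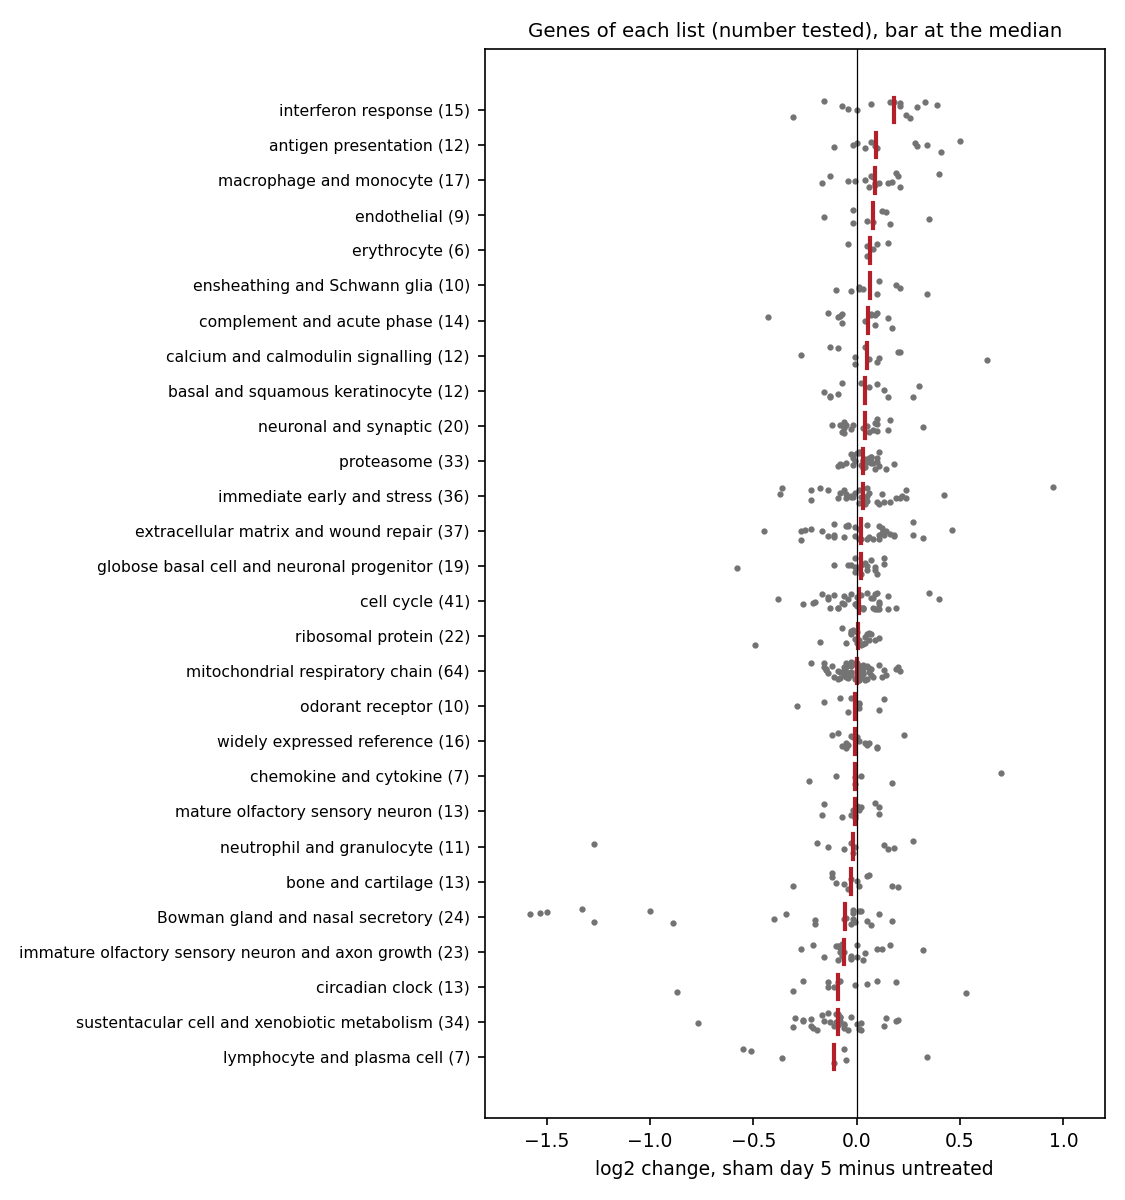
The log2 change between sham and untreated mice of every measured gene in each list of at least 5 genes (grey points, number measured in parentheses), with a red bar at the list median. Medians run from −0.11 for lymphocyte and plasma cell genes to 0.18 for interferon response genes, and the points below −0.8 lie in the secretory, neutrophil and circadian clock lists.

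The circadian clock list held 1 of the genes with the smallest p-values in each direction, neither of which passed the test. Arntl, which encodes the activator BMAL1, had 788, 1033 and 876 in untreated and 1123, 1374 and 1383 in sham mice. Dbp, a transcription factor driven by that activator, had 1008, 767 and 692 against 592, 359.7 and 416. The groups did not overlap for either gene, and the changes were 0.53 ± 0.14 and −0.87 ± 0.21 (limma adjusted p = 1.0 for both). Nr1d2, a repressor of Arntl, lay lower (−0.31 ± 0.12), as did Dbp's relative Tef (−0.26 ± 0.14), while Cry1 (−0.01 ± 0.10) and Bhlhe40 (−0.08 ± 0.14) overlapped around 0. Inside the first run the differences were smaller, 0.33 for Arntl, −0.46 for Dbp, −0.12 for Nr1d2 and 0.03 for Tef. Of the 13 genes measured 1 lay higher and 2 lower at an unadjusted p under 0.05, against 69 higher and 80 lower of all 5167 genes. The groups did not overlap for 1 gene with sham higher and 2 with sham lower, against 3.79% and 3.95% of all genes. The list median was −0.09. The hour at which tissue was taken is not given in the sources used here, and its part in these values was not tested.

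Detection calls separated the groups for few probe sets. Among those called present on all 3 arrays of 1 group and on none of the other, 5 were present in untreated mice and 7 in sham mice. H2-Ab1, a class II antigen presentation chain, was called present on the sham arrays only, at 1256, 2191 and 1836, while the untreated arrays read 1527, 944 and 1236, so the groups overlapped in signal. Il7r, the interleukin-7 receptor of lymphocytes, was called present on the untreated arrays only, at 249, 232 and 171 against 146, 139 and 168, and Serpinb6c, a protease inhibitor, at 175, 162 and 172 against 114, 133 and 103. The fitted changes were 0.50 ± 0.22 for H2-Ab1, −0.51 ± 0.24 for Il7r and −0.55 ± 0.24 for Serpinb6c (limma adjusted p = 1.0 for each), and that of H2-Ab1 was 0.05 inside the first run. The intervals of H2-Ab1 and Il7r ran from 0.00 to 1.01 and from −1.05 to 0.02. H2-Ab1, Il7r and Serpinb6c each met the presence rule only through the group in which they were called present. Their fitted changes are therefore a description and no support for a difference. Gzma, Msx1, Anapc1 and Klra5, which also carried present calls in 1 group alone, had fitted folds of 1.15, 1.15, 1.14 and 1.11 between the groups, none past the test. A probe set of Eral1 called present on the sham arrays only differed by 0.00 ± 0.11. A probe set of Snx17 called present on the untreated arrays only read slightly higher in sham mice (0.06 ± 0.16), so calls did not always follow the signal. Dio1, a deiodinase of thyroid hormone, had 67.9, 162 and 12.2 in untreated and 7.2, 4.0 and 7.0 in sham mice and was called present on 1 untreated array alone, so it was below the presence rule and not tested.

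Set beside the bulbectomy groups, the sham difference was small. In 1 model of all 15 arrays over the same 6642 probe sets, limma called 0 probe sets between sham and untreated mice, 180 (2.71%) between OBX day 1 and untreated mice, 1521 (22.9%) between OBX day 5 and sham mice and 944 (14.2%) between OBX day 7 and untreated mice. The median absolute log2 changes were 0.07, 0.15, 0.27 and 0.22, and 14, 56, 238 and 183 probe sets differed over 2-fold. These comparisons share the untreated or the sham arrays, and the difference between them was not tested. All OBX day 5 and day 7 arrays lay in fluidics runs 3 and 4 on a second scan day, and all untreated and sham arrays in runs 1 and 2 on the first, so run and scan day cannot be told apart from these OBX groups. The untreated arrays were all in run 1 and the OBX day 1 arrays in runs 2 and 3, with OBX day 1 replicate 3 on the second scan day. Run therefore cannot be told apart from group in that comparison either. Omp ran from 5420 to 19233 on the OBX day 5 arrays, against 37996 to 41307 on the 6 arrays described here, and S100a5 from 13345 to 18544 against 36403 to 42508. Neurog1, at 898.0 to 1574 on OBX day 5 arrays, lay at 433 to 542 on the untreated and sham arrays.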

How the data were processed

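The authors deposited, for every array, the linear signal intensity of each probe set, and the sources used here do not name the software behind it. With 2% trimmed at each end the mean signal was 1500.6 to 1500.7 on all arrays, which puts them on a common scale. Each deposited signal carries a call (present, marginal or absent) and the p-value behind that call, and per the file headers these come from the same output as the signals. The deposited series table and the files per array held the same signals (largest difference 0.0). The deposited array station settings, which hold values other than signals, gave the fluidics run and scan day. The number of arrays limits the precision, and array data have no depth.

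Of 12488 probe sets 66 array controls were left out. The platform annotation gave 10833 of the others 1 gene, 396 several and 1193 none, and 10817 symbols were set through the gene ID. Promoter windows came from RefSeq (GRCm38.p6), which had one for 4199 of the 5167 genes. The presence rule was a present call on at least 3 of the 6 arrays, and the 240 probe sets at 3 calls and the 241 at 2 had median signals of 544.8 and 447.1. Signals were log2 transformed with a floor of 1, which no value examined needed, and fitted in limma 3.58.1 (R 4.3.3) with 1 mean per group, moderated variances and a variance trend. P-values are two-sided and adjusted by the Benjamini-Hochberg method over 6642 probe sets, with a threshold of 0.05. A fit of all 15 arrays served for the comparisons with OBX. The script was tested on simulated data.

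Named genes were the 30 brightest, the 10 smallest p-values in each direction, the 4 brightest and 4 smallest p-values of each list, the 12 largest SDs within groups, 5 in each direction with detection in 1 group only, other probe sets of these, and Omp, Gap43, Neurog1, Pcna, Cd68, Slpi, Ube4b, Ptgr1 and Dio1. A gene in a list is represented by its brightest probe set. The members, lists and naming rule were chosen with earlier results of these data known. The alternatives were other filters, scalings, offsets and variance models, replicate or fluidics run as a block, and leaving out each array.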

Additional observations from a re-analysis of the deposited data

How the results depend on the processing

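No probe set was called in any of the 10 alternatives that kept all 6 arrays (smallest adjusted p from 0.068 with fluidics run as a block to 1.0 with the replicate block). Leaving out 1 array gave 0 to 2 calls, the 2 without sham replicate 2, and 13 to 19 probe sets over 2-fold. That count was 498 of 12422 with no filter on calls, 8 of 5779 with presence on all 6 arrays, 9 with log2(signal + 100), 33 with fluidics run as a block, where sham replicate 1 alone is compared with untreated arrays, and 12 to 14 otherwise; the cause of these shifts was not tested beyond the number of probe sets and arrays left. The deviations of same-numbered arrays from their group means correlated at −0.46, −0.20 and 0.02 for numbers 1, 2 and 3. Those of differently numbered arrays correlated at −0.31 to 0.41. With 3 arrays behind each mean these values depend on each other, so they cannot settle whether the numbers pair pools. The replicate block gave 0 calls and 14 probe sets over 2-fold. Intervals lay within 2-fold for 6093 to 6602 of the 6642 probe sets. The 30 brightest genes shared 28 with those of the untreated arrays alone and 29 or 30 with those found without any 1 array. The changes of Lcn3 and Lcn4 ran from −1.95 and −2.68 with array weights to −0.19 and 0.11 without sham replicate 3. The main fit called no gene, so there was no called gene whose sign could turn. Obp1a without sham replicate 2 was the only named gene called in an alternative. Some uncalled genes did turn, as Chil3, whose change ran from −0.69 to 1.15 over the alternatives.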

Other observations

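The first principal component of the 6 arrays set untreated replicate 1 and sham replicate 2 apart from the rest. Among the named genes at its ends, chosen after their values were seen, the brighter Lcn2 probe set was highest on those 2 arrays. Mup5, Mup3 and Obp1a lay at the same end, but Mup3 and Obp1a were highest on untreated replicate 2. Mup5 read higher on untreated replicate 3 (14900) than on sham replicate 2 (11311). At the other end, C1d was low on untreated replicate 1 (550.2) and highest on sham replicate 1 (1756). For C1d untreated replicate 3 read 1452 and the other arrays from 1043 to 1326. The gland genes with wide ranges did not all share an order. Obp1a and Mup3 were high on untreated replicate 2 (37355 and 21015), where Lcn2 (2779) and Mup5 (6992) were at their lowest among untreated arrays, while Lcn4 was at its highest there (11834).

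Some secreted proteins were uneven among bulbectomised mice too, and others were not. On the OBX day 1 arrays Mup5 read 38439.8, 3972 and 6797, and on the OBX day 7 arrays Lcn4 read 229, 13478 and 18712, while on the OBX day 1 arrays it read 18184, 16085 and 19377. On the OBX day 1 arrays the brighter Lcn2 probe set read 18544, 24493 and 25085, above all 6 untreated and sham arrays, whose highest value was 7570.0. The dimmer Lcn2 probe set read 801, 565 and 632 there, against 609 to 901 on those 6 arrays. These values are given without a test.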
